A study of Mus musculus with 4 samples.

Results

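The accessibility peaks at 1403 promoters ranked lower in CTCF-K20R embryoid bodies (EBs) than in WT EBs at day 4. They were chosen by those ranks from the 13303 autosomal protein-coding genes of mm10 that had a peak no further than 1000 bp from the start of transcription (TSS) in every one of the 4 peak lists. For each gene the strongest such peak of a list was taken, by its −log10 p, and these peaks were ranked anew within the list from 0 (weakest) to 100 (strongest). A promoter was kept as losing rank when both K20R ranks lay below both WT ranks and the K20R mean was at least 10 points below the WT mean. Genes in a 21.2 Mb stretch of chromosome 14 were left out of both numbers. That stretch held 175 ranked genes, of which 143 met the same conditions. These 175 genes took part in the ranking and were left out only afterwards. The ranks themselves chose these promoters, so their size and direction are given as a description and were not tested.

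ATAC-seq marks open DNA by the places where a transposase can insert sequencing adapters. WT and K20R cells were mouse embryonic stem cells (mESCs), for which the methods name the line E14Tg2A. In K20R cells lysine 20 of CTCF had been changed to arginine by CRISPR/Cas9. Cells of both genotypes were grown on inactivated fibroblast feeders with leukemia inhibitory factor and 2i inhibitors. They then formed EBs in hanging drops in serum without that factor for 4 days. Each genotype had 2 libraries, described by the methods as biological replicates. The study speaks of edited clones, and how many clones stand behind the K20R libraries is not given in the sources used here. Whether the WT cells had passed through the same drug selection is not given either. EBs are mixtures of cells, so fewer cells of a type and less open chromatin per cell cannot be told apart.

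A promoter is the stretch around a TSS where transcription factors and RNA polymerase assemble, and active promoters are usually free of nucleosomes and therefore accessible. CTCF binds DNA through its zinc fingers and, with cohesin, shapes the loops that bring enhancers and promoters together. During EB formation mESCs leave pluripotency, pass through a state like the early epiblast and then form cells that resemble the primitive streak, from which mesoderm and endoderm arise.

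Sequences upstream of 6 losing promoters are shown because these genes belong to the largest losses or to the primitive streak list described further on. Camk1g encodes a calcium/calmodulin-dependent kinase, Fgf5 a growth factor of the early epiblast, and Foxa2 a forkhead factor of the anterior streak and endoderm. Mesp2 encodes a helix-loop-helix factor of the presomitic mesoderm, T (Brachyury) the T-box factor that defines the streak, and Evx1 a homeobox factor of the posterior streak. Each run gives the 250 bases before the RefSeq start of the gene on GRCm38.p6 (the assembly behind mm10), 5′ to 3′ on the strand of the gene. Capitals mark matches, on either strand, to the GC box GGGCGG, the CCAAT box CCAAT or the T-box core TCACACC. A RefSeq promoter entry was found by symbol for 1096 of the 1403 genes.
Camk1g, chr1:193370283-193370532, minus strand: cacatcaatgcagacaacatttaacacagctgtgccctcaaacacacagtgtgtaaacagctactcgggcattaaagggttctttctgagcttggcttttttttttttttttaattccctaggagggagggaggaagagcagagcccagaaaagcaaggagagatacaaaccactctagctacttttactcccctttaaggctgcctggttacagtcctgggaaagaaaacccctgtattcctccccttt
Fgf5, chr5:98253934-98254183, plus strand: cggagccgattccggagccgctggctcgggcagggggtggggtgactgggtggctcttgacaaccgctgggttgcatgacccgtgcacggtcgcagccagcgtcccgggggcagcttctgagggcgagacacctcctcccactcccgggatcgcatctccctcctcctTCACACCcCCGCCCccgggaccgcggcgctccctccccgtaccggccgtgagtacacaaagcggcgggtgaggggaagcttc
Foxa2, chr2:148046970-148047219, minus strand: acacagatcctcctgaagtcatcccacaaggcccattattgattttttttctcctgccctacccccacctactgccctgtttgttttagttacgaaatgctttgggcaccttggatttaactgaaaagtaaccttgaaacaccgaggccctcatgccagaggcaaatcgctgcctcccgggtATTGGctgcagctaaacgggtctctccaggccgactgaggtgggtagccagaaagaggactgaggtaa
Mesp2, chr7:79810477-79810726, plus strand: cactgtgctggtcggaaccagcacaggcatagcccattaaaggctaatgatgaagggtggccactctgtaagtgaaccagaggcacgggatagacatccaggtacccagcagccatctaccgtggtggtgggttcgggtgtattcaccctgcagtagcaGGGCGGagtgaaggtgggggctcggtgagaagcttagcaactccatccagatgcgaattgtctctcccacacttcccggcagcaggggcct
T, chr17:8434173-8434422, plus strand: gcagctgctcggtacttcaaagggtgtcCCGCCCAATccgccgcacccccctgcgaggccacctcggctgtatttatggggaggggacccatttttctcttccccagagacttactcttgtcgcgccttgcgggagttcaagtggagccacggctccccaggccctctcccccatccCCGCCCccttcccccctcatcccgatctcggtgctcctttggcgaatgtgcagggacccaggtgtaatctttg
Evx1, chr6:52313248-52313497, plus strand: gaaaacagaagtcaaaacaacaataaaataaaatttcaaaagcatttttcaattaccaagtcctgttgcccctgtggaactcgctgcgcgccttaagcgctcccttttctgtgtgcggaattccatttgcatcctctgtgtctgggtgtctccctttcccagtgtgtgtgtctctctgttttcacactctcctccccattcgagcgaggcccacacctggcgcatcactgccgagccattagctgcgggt

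The window of Fgf5 was the richest in CpG dinucleotides, with 24 in 250 bases, and had a GC content of 70.8%. It held a GC box beside a T-box core. The window of T held 14 CpG, with 2 GC boxes and a CCAAT box that overlapped the first of them. Mesp2 had 8 CpG and 1 GC box, and Foxa2 had 6 CpG and 1 CCAAT box. The Camk1g window was at the other end of the range, with 1 CpG, a GC content of 44.8% and none of the 10 short motifs listed further on. Evx1 had 10 CpG and likewise none of them. The 6 windows therefore had little in common in their letters beyond belonging to promoters that lost rank.

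The 4 lists held 59783 and 66703 peaks in WT and 51823 and 55832 peaks in K20R. The number of autosomal genes with a promoter peak differed little, with 13955 and 14059 in WT compared with 13839 and 13952 in K20R. The median −log10 p of the ranked promoters was 45.8 and 72.6 in WT versus 47.9 and 81.3 in K20R, so that replicate 2 of each genotype had the higher values, and ranks were used to set the libraries on 1 scale. The depth in reads is not known from these lists.

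To describe how far accessibility moved at these promoters, the median rank of the losing set was taken in each library. It was 57.9 and 57.96 in the WT libraries and 38.2 and 40.9 in the K20R libraries. The median loss was -15.1 points, the interquartile range was from -19.9 to -12.1, and the largest loss was -62.2 points. The loss was larger than the spread between replicates, whose ranks differed at the same promoters by a median of 6.17 points in WT and 5.31 points in K20R, although the rule required such a separation. Losing promoters were 10.5% of those ranked. By the mirrored rule 1619 promoters, or 12.2%, gained rank, 322 of them on chromosome 8. Ranks are relative within a list, so that falls and rises cancel by construction over all 13478 ranked genes, the stretch of chromosome 14 included. With the stretch left out, the mean rank was 49.94 and 49.95 in WT against 50.27 and 50.31 in K20R. The counts of losses and gains therefore do not show whether accessibility as a whole fell or rose. Without the 10-point minimum, both K20R ranks lay below both WT ranks at 22.2% and above them at 24.2% of ranked promoters. The distribution of the change over all ranked promoters was centred at 0.165 points.

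**Figure D1:**
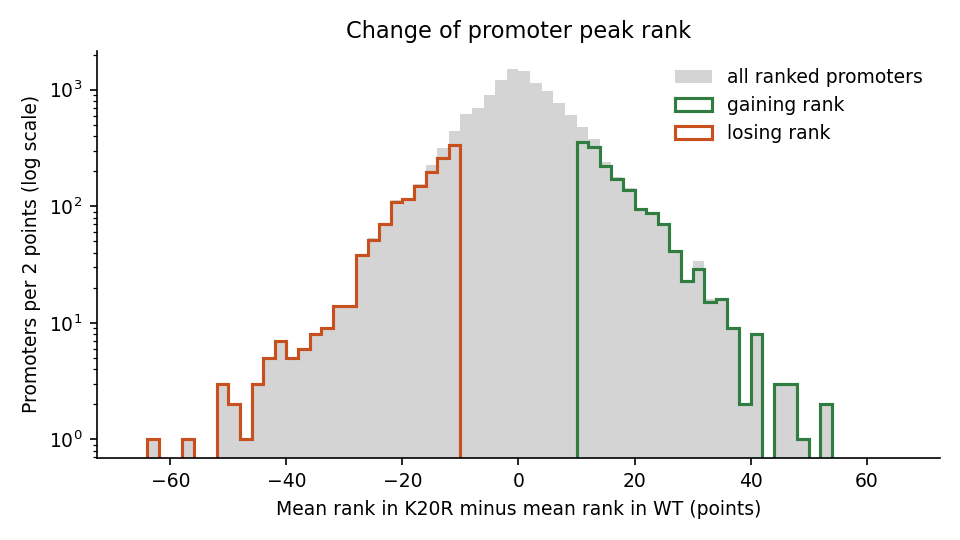
Change of promoter rank (mean of K20R minus mean of WT, in points) for 13303 ranked promoters in grey, with the number per bin on a log scale. The 1403 losing promoters, outlined in orange, reach down to -62.2 points, and the 1619 gaining promoters, outlined in green, reach up to 53.2 points.

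Most losses were small. Of the 1403 promoters, 346 lost at least 20 points, 65 at least 30, 23 at least 40 and 5 at least 50. Just inside the threshold were Pycrl at -10.01, Ahnak2 at -10.013 and St8sia1 at -10.021 points. Just outside it were Scnn1b at -9.9948, Tyms at -9.993 and P4htm at -9.98 points, whose genotypes did not overlap either. The members nearest to the threshold were thus hardly apart from their neighbours outside it.

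Most losing promoters were of intermediate strength in WT. By mean WT rank, 2.30% of the promoters below 20 points were in the losing set, which is bounded there because a rank cannot fall below 0. The share was 10.8% between 20 and 40, 14.7% between 40 and 60, 15.7% between 60 and 80 and 8.64% above 80. The strongest promoters to lose rank were those of Cenpu, Txn2, Tubgcp2 with Zfp511, and Dnhd1. Cenpu, which encodes a centromere protein, ranked 99.3 and 99.6 in WT against 83.0 and 91.6 in K20R. Txn2, which encodes the mitochondrial thioredoxin, ranked 98.3 and 99.4 in WT compared with 77.1 and 79.0 in K20R. Tubgcp2, which encodes a part of the gamma-tubulin complex, shares 1 peak with its divergent neighbour Zfp511, with ranks of 98.9, 97.9, 85.6 and 90.9 in the order WT replicate 1, WT replicate 2, K20R replicate 1 and K20R replicate 2. These promoters stayed among the stronger ones of the K20R lists.

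A peak can also be described by its fold enrichment over the local background, which the lists give beside p. Fold and p come from the same reads of a library, so a lower fold at promoters chosen by p is not separate support. The median fold of the losing promoters was 9.04 and 10.8 in WT versus 7.38 and 9.30 in K20R, against 8.49 and 10.2 in WT against 8.31 and 10.1 in K20R for all ranked promoters. Relative to the median of the ranked promoters in each library, the fold of a losing promoter differed by a median log2 value of -0.22. On that scale both K20R folds were the lower ones at 1000 of the 1403 promoters (71.3%) and above them at 10. Over all ranked promoters the share below was 19.6%. When the promoters were ranked by fold in place of p, 1495 lost and 1477 gained rank, and 806 of the losing ones were in the original set, which is 57.4% of the 1403 and 53.9% of the 1495. Membership of the set therefore depended on which of the deposited measures was ranked.

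The peaks mostly stayed in place. At 1369 of the losing promoters (97.6%) both WT summits lay inside both K20R peaks, where the share for all ranked promoters was 97.4%. All 4 summits lay within 150 bp of each other at 963 promoters (68.6%, against 69.1% of all ranked). Median peak widths were 1180 and 1215 bp in WT compared with 1175 and 1282 bp in K20R. Both K20R peaks were narrower than both WT peaks at 16.5% of losing and 13.9% of all ranked promoters. By GENCODE vM21, the summit in WT replicate 1 lay upstream of the gene at 681 promoters (48.5%), in the non-coding part of an exon at 448 (31.9%), in an intron at 209 (14.9%) and in a coding exon at 64 (4.56%). In K20R replicate 1 these numbers were 669, 432, 223 and 78. The summits of all 4 lists were over 1000 bp from the TSS at 51 promoters (3.64%, against 2.75% of all ranked), where only the edge of the peak reached the promoter.

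Among the largest losses, the promoter of Aplnr came first. Aplnr encodes the apelin receptor, a G-protein-coupled receptor of early mesoderm and of the vasculature. It is on chromosome 2 (85136225 to 85139923), and its peak ranked 71.7 and 66.4 in WT versus 4.18 and 9.44 in K20R. Its summit fold was 6.01 and 5.65 in WT against 4.26 and 6.97 in K20R, so that the genotypes overlapped by fold, with a log2 difference of -0.07 relative to the library medians. The largest loss by rank was thus not a loss by fold.

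Camk1g, on chromosome 1 (193346346 to 193370298), followed with ranks of 62.5 and 73.5 in WT compared with 9.29 and 11.7 in K20R. Its fold was 10.9 and 14.2 in WT versus 6.02 and 9.01 in K20R, a log2 difference of -0.73 relative to the library medians, and its summit lay between 20 bp upstream and 3 bp downstream of the TSS in all 4 lists. Fgf5, on chromosome 5 (98254184 to 98277030), ranked 71.5 and 54.7 in WT against 11.6 and 10.9 in K20R. Its fold was 7.39 and 6.75 in WT compared with 3.87 and 4.30 in K20R, and its summit moved from 3 and 10 bp to 122 and 117 bp downstream of the TSS, within the first exon. For Camk1g and Fgf5, then, p and fold moved the same way.

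The promoter of Foxa2, on chromosome 2 (148042877 to 148046969), was the strongest of the 20 largest losses in WT. It ranked 85.3 and 86.0 in WT versus 40.02 and 32.1 in K20R, and its summit lay in an intron 563 or 564 bp downstream of the TSS in every list. Its fold was 6.94 and 7.28 in WT against 5.41 and 5.58 in K20R. Mesp2, on chromosome 7 (79810727 to 79813439), ranked 60.3 and 68.7 in WT compared with 17.4 and 24.3 in K20R. Its summit was in the non-coding part of the first exon in WT, 75 and 81 bp from the TSS, and in coding sequence in K20R, 439 and 504 bp from it. Dll3, which encodes a Notch ligand of the presomitic mesoderm, ranked 51.8 and 57.5 in WT versus 8.71 and 13.6 in K20R, with folds of 6.63 and 7.88 in WT against 3.73 and 5.08 in K20R. In these genes of streak and presomitic tissue no K20R value reached a WT value by rank or by fold, relative to the library medians.

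Sdc2 encodes the heparan sulfate proteoglycan syndecan-2, and its promoter ranked 50.5 and 62.8 in WT compared with 9.49 and 12.6 in K20R. Scn7a, which encodes a sodium channel, ranked 42.1 and 54.8 in WT versus 3.56 and 5.41 in K20R. The Wnt co-receptor gene Lrp5 ranked 51.8 and 47.2 in WT against 5.11 and 3.79 in K20R. Its summit was 1466 and 1468 bp upstream of the TSS in both WT libraries and in K20R replicate 2 (1468 bp), whereas in K20R replicate 1 it was 182 bp downstream, in coding sequence, so that a different peak was compared there. Flnc, which encodes the muscle filamin C, ranked 72.9 and 41.6 in WT, a wider spread than at the other genes named here, and 12.2 and 13.5 in K20R. Its fold was 5.30 and 4.29 in WT compared with 3.58 and 4.02 in K20R, and these values overlapped once each was set relative to the median of its library. The third of the 20 whose fold overlapped, beside Aplnr and Flnc, was the fatty acid transporter gene Slc27a6, with 11.8 and 13.9 in WT versus 12.4 and 14.04 in K20R.

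The remaining members of the 20 were Lrmp, Vwa3a, 4931440F15Rik, Tor4a, Lrrc6, Zfp9, Gm8113, Gm8439 and H2-T24. Lrmp, which encodes a membrane protein of lymphoid cells, ranked 59.0 and 83.1 in WT against 19.6 and 19.4 in K20R. Vwa3a, named for a von Willebrand factor domain, ranked 61.2 and 63.2 in WT compared with 11.1 and 11.2 in K20R. At 4931440F15Rik the summit lay about 700 bp upstream in WT (696 and 702 bp) and 611 and 765 bp downstream in K20R, so that the genotypes were compared at different peaks. Gm8113, Gm8439 and H2-T24 may have close copies in the genome, so their values are uncertain. The authors discarded reads of low mapping quality, and how uniquely reads map there was not tested. Of the 20 promoters, 17 were also lower in both K20R libraries by fold, and the median log2 difference was -0.51, with a range from -0.96 to 0.07. As fold shares its reads with the p that chose these promoters, this is a description only.

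**Figure D2:**
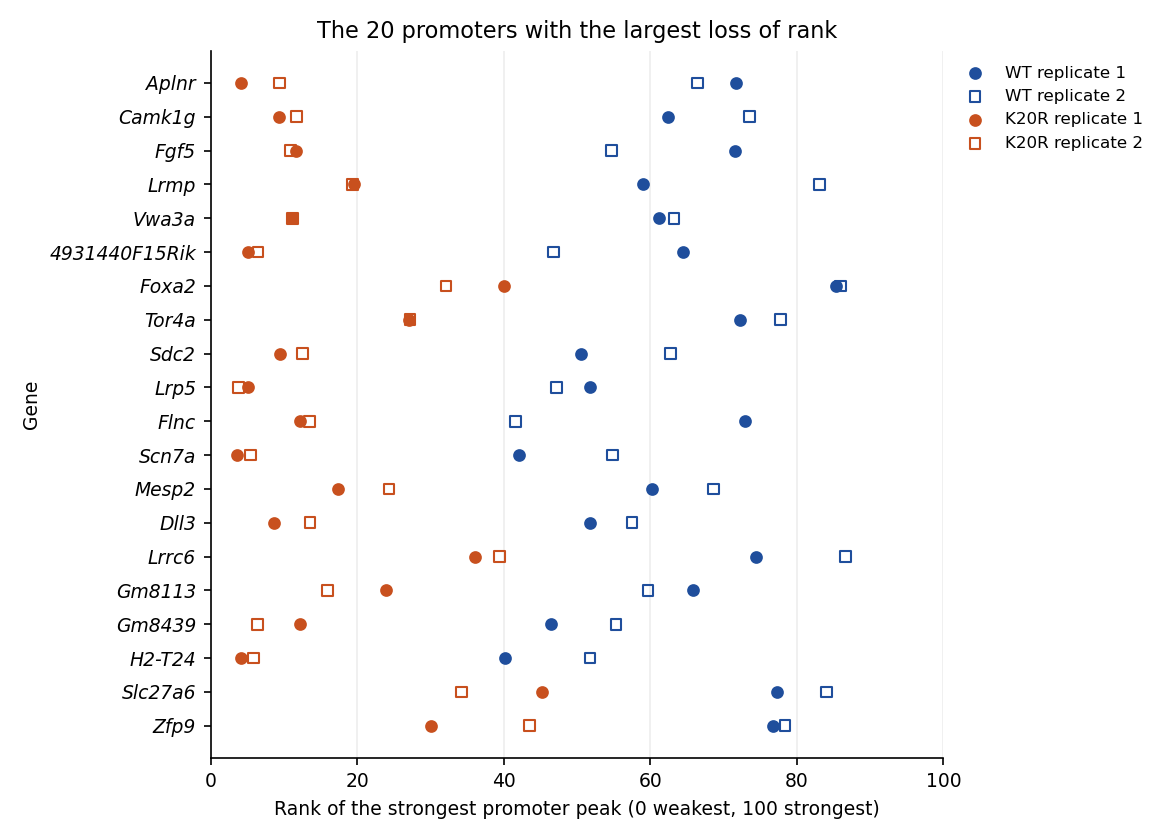
Rank of the strongest promoter peak (0 to 100) in each of the 4 libraries for the 20 promoters with the largest loss, ordered by the change. WT libraries are in blue and K20R libraries in orange, with replicate 1 filled and replicate 2 open. Aplnr, at the top, lies at 71.7 and 66.4 in WT versus 4.18 and 9.44 in K20R.

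To see which pathways and lineages these promoters came from, lists of known genes were counted, with both background shares (10.5% losing and 12.2% gaining) in view. Genes in a list do not replicate each other, the lists are short, and no test was run on them. The counts for lists and families were not split by chromosome, and the background shares were not matched for WT rank. Chromosome 8, where 43.1% of ranked promoters gained rank, held 322 of the 1619 gaining promoters. The primitive streak and early mesoderm list had 6 losing promoters of 24 ranked (25%), namely Foxa2, Mesp2, T, Lhx1, Evx1 and Sp5, and 1 gaining promoter, Mesp1. T ranked 40.5 and 37.1 in WT against 16.6 and 12.7 in K20R, with folds of 5.90 and 6.45 in WT compared with 4.77 and 5.19 in K20R, and its summit stayed between 272 and 297 bp upstream of the TSS. Lhx1, a homeobox gene of the anterior streak and node, ranked 29.9 and 22.3 in WT versus 12.9 and 8.77 in K20R. Evx1 ranked 11.6 and 23.0 in WT against 3.33 and 3.05 in K20R, where the summit was 1301 and 1450 bp downstream of the TSS in WT compared with 477 and 481 bp in K20R, a different place. Sp5, a target of Wnt signalling, was near the threshold, with 25.3 and 11.6 in WT versus 10.5 and 6.29 in K20R, and its fold relative to the library medians was not lower in K20R (log2 difference 0.05). By fold, 4 of the 6 were also lower in both K20R libraries relative to the library medians, all but Lhx1 and Sp5. Mesp1, the paralog of Mesp2 beside it on chromosome 7, ranked 3.24 and 3.22 in WT against 17.2 and 20.7 in K20R. The mean rank of the 24 promoters was 26.7 and 25.04 in WT compared with 20.2 and 19.3 in K20R, and the median of their changes was -2.20 points.

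The cardiac list had 4 losing promoters of 17 ranked (23.5%) and 0 gaining ones. Gata6, which encodes a zinc-finger factor of heart and endoderm, ranked 41.3 and 51.8 in WT versus 8.54 and 13.1 in K20R, with folds of 5.25 and 6.203 in WT against 3.61 and 4.42 in K20R. Myocd encodes myocardin, a coactivator of muscle genes, and ranked 71.8 and 69.0 in WT compared with 45.8 and 43.2 in K20R. Hcn4, the gene of a pacemaker channel, ranked 55.9 and 63.1 in WT versus 47.6 and 30.4 in K20R. Gata5, a relative of Gata6, ranked 40.03 and 42.1 in WT against 21.6 and 32.1 in K20R, and its fold overlapped between genotypes relative to the library medians. The median change of the 17 promoters was -0.74 points. Their median rank in WT was only 7.66 and 9.36, however, and a rank below 10 cannot fall by the 10 points required. The median change therefore does not show whether the weaker promoters of the list shared the losses of these 4 genes. The endoderm list had 2 losing promoters of 17 ranked, Gata6 again and the laminin gene Lama1, and 0 gaining ones. Of the 10 ranked blood and endothelium promoters 0 lost and 1 gained rank. The median WT rank of these 10 was 13.9 and 11.2, which left little room for a loss of 10 points.

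The pluripotency list had 3 losing promoters of 19 ranked (15.8%) and 5 gaining ones (26.3%), while 11 did neither. The gaining ones were those of Zfp42, Tfcp2l1, Pou5f1, Utf1 and Dppa5a. Beside Fgf5, the losing promoters were those of Dnmt3b, which encodes a DNA methyltransferase, and Tdgf1, which encodes the Nodal co-receptor Cripto. Dnmt3b ranked 36.9 and 29.8 in WT compared with 19.9 and 26.1 in K20R. Tdgf1 ranked 47.8 and 48.8 in WT versus 30.2 and 23.2 in K20R, and its summit was 1495 and 1498 bp upstream in WT against 662 and 706 bp upstream in K20R. The fold of Tdgf1 overlapped between genotypes (log2 difference -0.05). The mean rank of the 19 promoters hardly differed, with 39.1 and 39.5 in WT compared with 39.6 and 37.4 in K20R.

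The neuroectoderm list had 4 losing promoters of 24 ranked and 3 gaining ones. Neurog1, a proneural factor gene, ranked 64.6 and 63.5 in WT versus 36.3 and 23.7 in K20R. Zic2, a zinc-finger factor gene, ranked 82.6 and 78.9 in WT against 55.9 and 54.5 in K20R. The other two were Pax3 and Olig1, at -13.2 and -12.6 points. The folds of Neurog1 and Zic2 overlapped between genotypes relative to the library medians, and those of Pax3 and Olig1 did not. Fibroblast genes were counted because the mESCs had been grown on feeders. Of 13 ranked fibroblast promoters 3 lost rank, those of Col5a1, Fbn1 and Thy1, and 0 gained it. The mean rank of the 13 was 37.6 and 37.2 in WT compared with 31.5 and 31.0 in K20R, while 4 listed genes, Col3a1, Fap, Postn and Lum, had no promoter peak in any library. The part of residual feeder cells in the losses was not tested.

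The TGF-beta, Nodal and BMP list had 8 losing promoters of 45 ranked (17.8%) and 3 gaining ones. They covered a ligand (Tgfb2), receptors (Acvr2b, Bmpr1b and the co-receptor gene Tdgf1), a signal transducer (Smad3), the secreted antagonist follistatin (Fst) and the BMP target genes Id1 and Id2. Smad3 ranked 52.0 and 62.6 in WT versus 32.0 and 40.7 in K20R. Acvr2b, which encodes an activin receptor, ranked 85.2 and 87.7 in WT against 73.8 and 68.8 in K20R. Id1 ranked 29.3 and 21.8 in WT compared with 15.3 and 13.1 in K20R, but its fold was 3.78 and 3.90 in WT versus 4.28 and 4.88 in K20R, which is higher in K20R relative to the library medians (log2 difference 0.27). The summit of Id1 in WT replicate 2 was 1034 bp upstream of the TSS, outside the K20R peaks. The fold of Id2 was not lower either (log2 difference 0.04), and of the 8 promoters 4 were lower by fold in both K20R libraries. The mean rank of the 45 promoters was 40.4 and 40.1 in WT against 38.2 and 39.1 in K20R, a small difference beside that of the 8 genes.

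The Wnt list had 6 losing promoters of 46 ranked (13.0%) and 2 gaining ones. The losing ones were the ligand gene Wnt6, the receptor genes Fzd2 and Lrp5, the antagonist genes Dkk1 and Notum, and Tcf7l2, which encodes a nuclear effector. Dkk1 ranked 60.8 and 31.8 in WT compared with 23.6 and 24.2 in K20R, with a fold that overlapped between genotypes. Tcf7l2 ranked 63.4 and 76.9 in WT versus 57.9 and 54.6 in K20R. By fold, 2 of the 6, Wnt6 and Lrp5, were lower in both K20R libraries. The FGF and ERK list had 4 losing promoters of 38 ranked (10.5%), those of Fgf5, the receptor gene Fgfr2, the kinase gene Mapk3 and the feedback phosphatase gene Dusp6, and 3 gaining ones. Fgfr2 ranked 50.5 and 57.0 in WT against 24.2 and 30.5 in K20R. Dusp6 ranked 82.0 and 81.9 in WT compared with 64.1 and 58.2 in K20R, with overlapping folds. The Notch list had 4 losing promoters of 28 ranked, those of the ligand Dll3, the glycosyltransferase Lfng, the coactivator Maml2 and the ligand-activating ligase Mib1, and 4 gaining ones. In these 3 lists the losing shares lay near the background of 10.5%.

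Retinoic acid genes had 2 losing promoters of 13 ranked, those of Aldh1a3, a synthesizing enzyme, and the receptor Rarg, and 0 gaining ones, with a median change of -4.80 points. Guidance and ephrin genes had 6 losing promoters of 45 ranked, those of Efna1, Efna3, Efnb2, Efnb3, Nrp1 and Unc5c, and 6 gaining ones. At Efna3 and Efnb3 the summits lay over 1000 bp from the TSS in WT and within 150 bp of it in K20R, and at Efna1 the summit of K20R replicate 1 was apart from the other 3, so that different places were compared at 3 of the 6. Glycolysis genes had 3 losing promoters of 21 ranked, those of Aldoa, Eno2 and Pkm, and 3 gaining ones, but the symbol Aldoa belongs to more than 1 gene record and the pair of records moved in opposite directions. DNA repair genes had 3 losing promoters of 37 ranked (Tdg, Atr and Ercc5), chromatin modifiers 2 of 40 (Dnmt3b and Hdac2), and genes of epithelial-mesenchymal transition and adhesion 2 of 30 (Itgav and Grhl2). Of the 15 ranked genes of CTCF and cohesin 0 lost rank and 5 gained it, and how many of the 5 lie on chromosome 8 was not counted. Of 10 ranked promoters of marker genes of the study 1 lost rank, T, and 2 gained it.

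**Figure D3:**
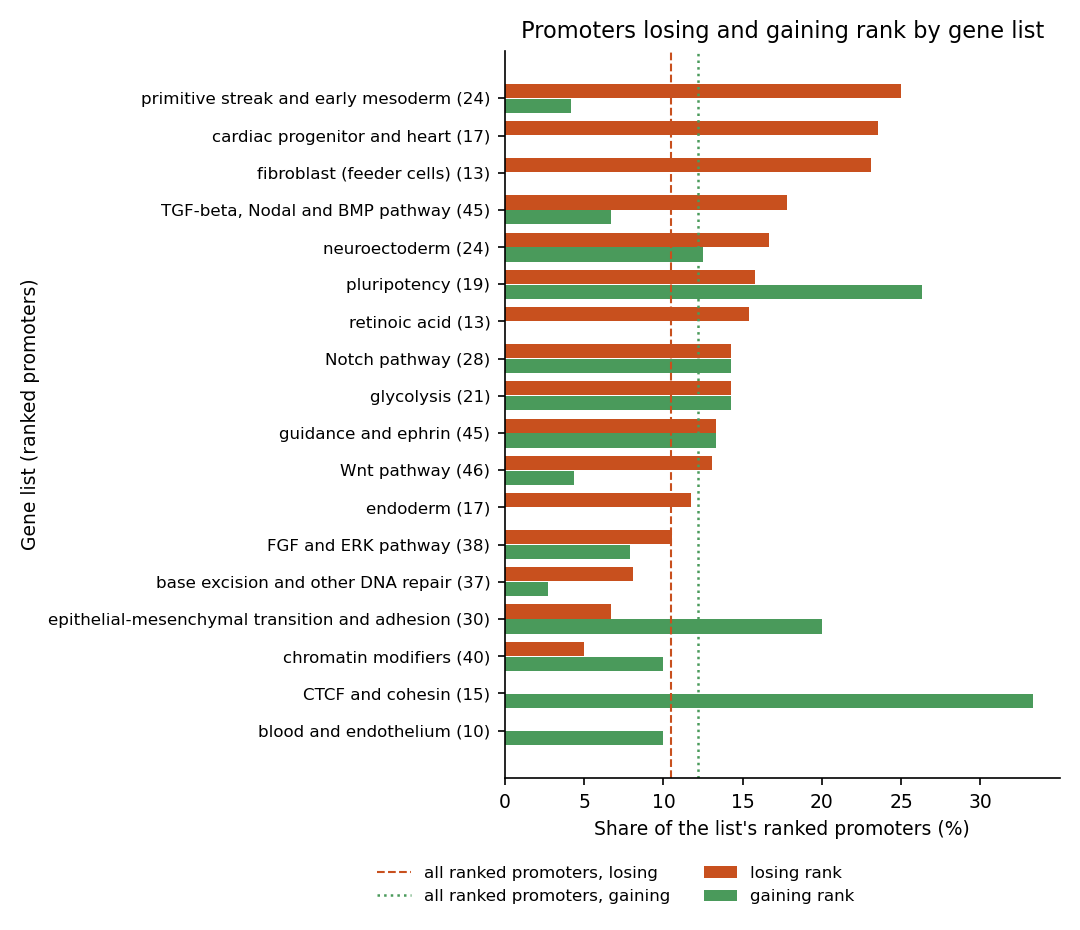
Share of ranked promoters losing rank (orange bars) and gaining rank (green bars) in 18 gene lists, in percent, with the number of ranked promoters of each list in parentheses. The dashed and dotted lines mark the shares over all ranked promoters, 10.5% losing and 12.2% gaining, and the primitive streak list stands at 25% losing and 4.17% gaining.

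Large gene families differed in their losing shares. Of 316 zinc finger genes with a Zfp symbol 37 lost rank (11.7%) and 43 gained it, of 226 solute carrier genes 19 lost it (8.41%) and 31 gained it, and of 88 potassium and calcium channel genes 11 lost it (12.5%) and 10 gained it. Cytoplasmic ribosomal protein genes had 7 losing promoters of 75, respiratory chain genes 3 of 80 (3.75%), mitochondrial ribosomal protein genes 4 of 74 (5.41%) and Rab GTPase genes 2 of 50. Fox, Sox, Tbx and Gata factor genes together had 8 losing promoters of 67 (11.9%) and 4 gaining ones. Of 33 ranked Hox promoters 2 lost rank (6.06%), those of Hoxd11 and Hoxc6. The median WT rank of the 33 was only 5.58 and 4.44, and a rank below 10 cannot fall by the 10 points required. The low share of Hox promoters is therefore not a result about these genes. The families of the respiratory chain and the mitochondrial ribosome were thus below the background of 10.5%, with few losing promoters and no test. Other housekeeping families were near it, with 9.33% of cytoplasmic ribosomal protein, 10.2% of translation initiation factor and 12.2% of proteasome genes. Zinc finger, channel and lineage factor genes were near it too. Proteasome genes had 5 losing promoters of 41 and 12 gaining ones (29.3%), and clustered histone genes 5 of 56 and 12 gaining ones (21.4%), both above the gaining background of 12.2%.

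To see whether losing promoters lay together on the chromosomes, the ranked genes were followed in order along each of them. Of the 1403 promoters, 257 shared their strongest peaks with another member, so that 1274 separate peak sets were counted. Of the ranked promoters next to a losing one, 13.2% were losing as well, against 10.6% next to any ranked promoter. Counted by gene, so that genes with the same peak form a run, there were 872 losing promoters without a losing neighbour, 183 pairs and 1 run of 6, the longest. That run, on chromosome 17 (32809931 to 32993129), held the zinc finger genes Zfp811, Zfp799, Zfp870, Zfp472 and Zfp952 and the cytochrome gene Cyp4f13, with a median change of -15.4 points. Zfp870 ranked 54.0 and 55.3 in WT versus 31.1 and 29.8 in K20R, and Zfp811 ranked 59.9 and 55.3 in WT against 40.9 and 37.2 in K20R. T stood at the end of a run of 3 on chromosome 17, with Mpc1 and Sft2d1.

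By chromosome, the losing share ranged from 6.29% on chromosome 8 (47 of 747) to 15.1% on chromosome 14 (43 of 285, outside the stretch left out). On chromosome 14 it was 21.7% within 5 Mb of that stretch (10 of 46, Gm8113 among the losing ones) and 13.8% beyond (33 of 239). Whether the losses near its edges belong with those of the stretch was not tested. On chromosome 8, 43.1% of ranked promoters gained rank and the median change was 7.79 points, and these promoters take part in the common ranking. With chromosome 8 left out of the ranking, 1235 promoters of the other chromosomes lost rank, all of them in the original set. The remaining members on the other chromosomes no longer met the rule.

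The base composition around the TSS was not used by the rule. In windows reaching 500 bp to either side of the TSS, losing promoters were less often CpG-rich, which was taken as a GC content of at least 55% and a ratio of observed to expected CpG of at least 0.65. This held for 668 of 1403 losing promoters (47.6%, Wilson 95% interval 45.0 to 50.2), 54.0% of gaining promoters (51.6 to 56.5) and 55.03% of all ranked promoters (54.2 to 55.9). The intervals cover counting error only, as promoters are not replicates. The difference lay in the CpG ratio, whose median was 0.673 in losing and 0.722 in all ranked promoters, and hardly in the GC content, with medians of 58.9% and 59.1%. The share of CpG-rich promoters was lower the larger the loss, with 50.2% of those that lost 10 to 20 points, 43.4% of those that lost 20 to 30 and 23.1% of those that lost over 30 (15 of 65, interval 14.5 to 34.6). Among gaining promoters the corresponding shares were 56.5%, 44.2% and 55.7%. Without WT replicate 2 the share of losing promoters that were CpG-rich was 55.03%, equal to that of all ranked promoters, so that the difference rested on this library. Without the others it was between 44.6% and 50.1%. When promoters were ranked by fold it was 53.0%. The shares by size of the change were not recomputed without WT replicate 2 or by fold.

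**Figure D4:**
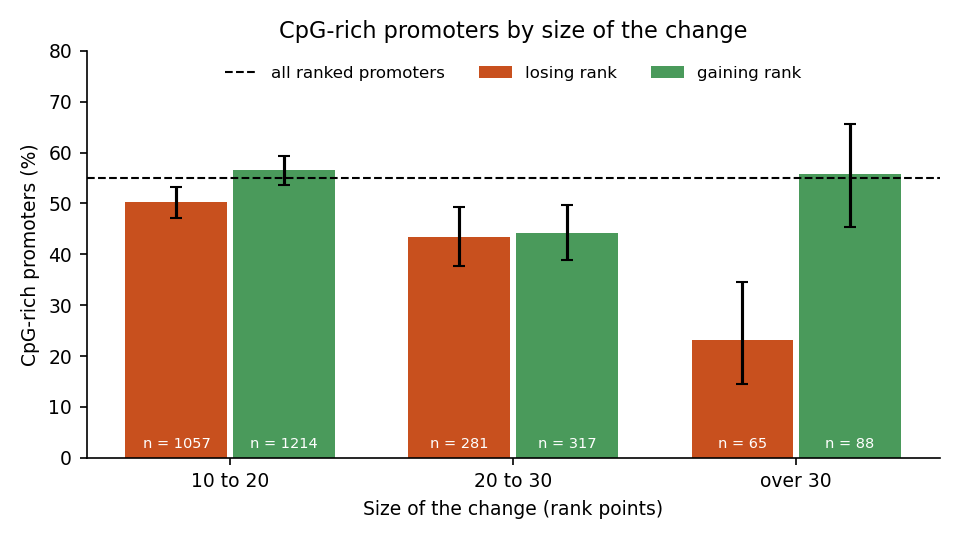
Share of CpG-rich promoters (percent, with Wilson 95% intervals as bars) among losing promoters (orange) and gaining promoters (green), by the size of the change in rank points. The dashed line is the share over all ranked promoters, 55.03%, and losing promoters fall from 50.2% to 23.1% with the size of the loss.

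Among named members, Aplnr and Camk1g had the CpG ratios furthest below that median, 0.133 and 0.145, while Fgf5 (0.738), Flnc (0.744) and Dnmt3b (0.830) were CpG-rich. For the sequence itself, 10 short motifs were searched on both strands of the 300 bases around each TSS, 250 before and 50 after it. Losing promoters held the GC box GGGCGG in 59.2% (all ranked 62.6%), the CCAAT box CCAAT in 36.8% (37.96%), the ETS core CCGGAAG in 16.9% (15.8%) and the E-box CACGTG in 9.48% (9.98%). The TATA box TATAAA was found in 6.49% (7.05%), the CREB core TGACGTC in 6.06% (5.50%), the AP-1 motif TGANTCA in 4.49% (4.44%) and the T-box core TCACACC in 3.64% (3.38%). The NRF1 core GCATGCG was found in 4.21% (interval 3.27 to 5.39, all ranked 6.12%) and the GATA core AGATAA in 4.70% (interval 3.71 to 5.94, all ranked 6.17%). For the GC box the interval was 56.6 to 61.8. These Wilson intervals cover counting error only, as promoters are not replicates. Gaining promoters held the GC box in 63.7%, the NRF1 core in 6.42%, the GATA core in 7.04% and the TATA box in 9.20%. Motif shares were not recomputed without WT replicate 2. Matches were counted wherever the letters occurred, also where motifs overlapped. The CTCF consensus, searched in those windows reaching 500 bp to either side, was found in 1.497% of losing and 1.43% of all ranked promoters. A match is a description of the sequence and not a bound site.

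To ask whether distal regions near these promoters moved with them, regions between 1000 and 50000 bp from the TSS and outside all promoter windows were examined, which the rule had not used. Near losing promoters there were 5746 such regions, 2357 of them with a peak in all 4 lists. The latter were ranked anew from 0 to 100 among all 23248 common distal regions. Their median rank was 53.9 and 52.1 in WT compared with 51.4 and 51.7 in K20R, against 51.0, 50.4, 51.1 and 50.8 near all ranked promoters. The median change per region was nevertheless above 0, at 0.77 points near losing and 1.14 points near all ranked promoters, with 703 regions above and 657 below near losing promoters. The excess of the median rank over all ranked promoters was 2.31 ± 0.789 points in WT and 0.609 ± 0.414 points in K20R (SD, n = 2). The difference of -1.70 points gave p = 0.3333 in a two-sided exact permutation test, the smallest p that 2 against 2 libraries allow, so that this test cannot reach 0.05. Of the common distal regions, 27.9% near losing promoters had both K20R ranks below both WT ranks and 29.8% above, where the background over all common distal regions was 27.3% and 31.6%. With ranking by fold the difference was 0.146 points and changed sign.

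**Figure D5:**
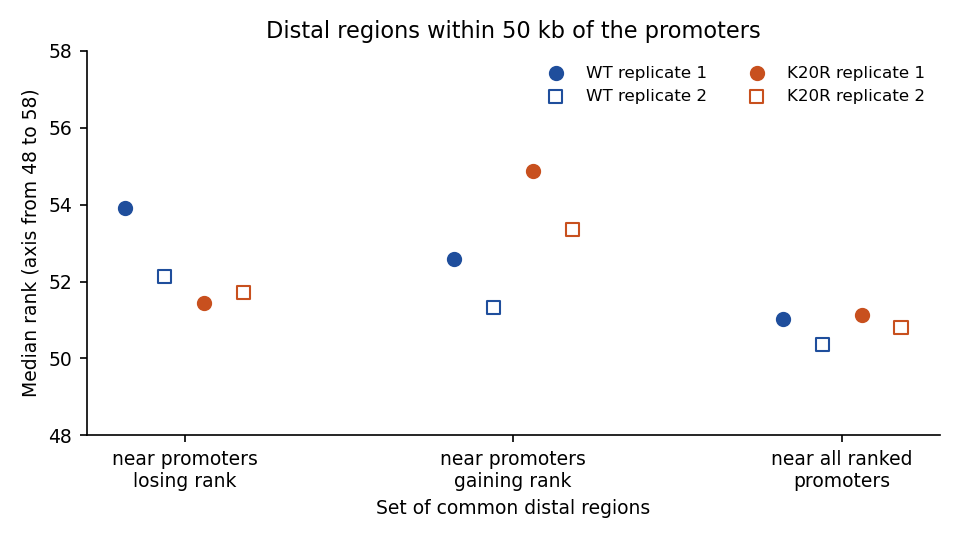
Median rank of common distal regions (points, axis from 48 to 58) in each library, near losing promoters, gaining promoters and all ranked promoters. WT libraries are in blue and K20R libraries in orange, with replicate 1 filled and replicate 2 open. Near losing promoters the values are 53.9 and 52.1 in WT versus 51.4 and 51.7 in K20R.

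The regions were also divided by their distance to the promoter, with no test. Between 1000 and 5000 bp, where 170 common regions lay near losing promoters, the median rank was 46.9 and 44.9 in WT against 57.4 and 51.0 in K20R, higher in K20R, and the median change per region was 2.27 points, against 1.24 points near all ranked promoters. Of these regions 31.2% were above and 20.0% below, against 29.03% and 25.4% near all ranked promoters. Between 5000 and 20000 bp the median rank was 57.8 and 55.3 in WT compared with 51.7 and 52.9 in K20R, lower in K20R, for 875 regions, yet the median change per region was 0.083 points. Between 20000 and 50000 bp the median rank was 52.4 and 51.5 in WT versus 50.3 and 50.7 in K20R for 1312 regions, with a median change of 0.93 points, and more of them were above (400) than below (356). In no distance class was the median change per region below 0. WT-restricted regions, with a peak in both WT lists and neither K20R list, accounted for 595 of the 5746 regions (10.4%, against 10.9% near all ranked promoters), and regions with a peak in both K20R lists and neither WT list for 208 (3.62%, against 3.76%). Losing promoters with at least 1 WT-restricted distal region were 36.8%, and of all ranked promoters 36.3% had one. Between 1000 and 5000 bp, 6.98% of regions near losing promoters were WT-restricted, against 11.7% near all ranked promoters. Regions restricted to the K20R lists were also 6.98% there, against 3.80%, and in the farther classes no more frequent than near all ranked promoters. The WT-restricted share was 9.65% against 9.90% between 5000 and 20000 bp, and 11.1% against 11.6% beyond. In no distance class, therefore, was loss of rank at the promoter accompanied by a higher share of nearby regions missing from the K20R lists.

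Single genes differed from this average, and those given here are examples from the named genes. Of the 5 distal regions of Aplnr, 3 were WT-restricted and the 2 common ones were both lower in K20R. Near Dusp6 all 4 common regions were lower in K20R, and near T 4 of 6 were lower and 1 was higher. Near Mesp2 2 of 3 common regions were lower, 1 region was WT-restricted and 2 were restricted to the K20R lists. Near Tor4a 3 of 10 regions were WT-restricted. Near Dll3 and near H2-T24, by contrast, both common regions were higher in K20R. Near Wnt6 4 of 9 common regions were higher and 1 was lower. Near Foxa2 1 of 4 was higher and 1 was lower.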

How the data were processed

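ATAC-seq peak lists of 2 WT and 2 CTCF-K20R libraries of day 4 EBs were used. According to the methods of the study, the authors trimmed reads with Trim Galore, aligned them to mm10 with Bowtie2, discarded reads of low mapping quality and called peaks with MACS2. Each library has its own list. The deposited score of a peak is its −log10 p times 10. The deposited fold sets the summit pileup against the background expected around it. The −log10 p and the −log10 q of each summit are the authors' values too. The lists hold between 50.5% and 60.8% of their own peak numbers, so called peaks had been removed by a rule not given in the sources used here. Read counts were not used here, so no count test was possible.

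Peaks were assigned to gene starts of GENCODE vM21 (basic) within 1000 bp and ranked from 0 to 100 per list, by −log10 p. Coordinates count from 1. A gene whose peaks are missing from 1 or more lists was not ranked, which was the case for 938 genes with a peak in 1 to 3 lists and 6247 with none. Of the former, 171 had a promoter peak in both WT and neither K20R list and 100 the reverse. Sequences came from GRCm38.p6 and RefSeq. Python 3.11.15, NumPy 2.4.6, pandas 2.3.3, SciPy 1.17.1 and matplotlib 3.10.9 were used, and the ranking rule was tested on simulated data. The named genes were the 20 largest losses, all members in the gene lists, the 5 with the highest WT rank, the longest run of neighbours and the genes next to the threshold. The members, gene lists and tests were chosen with earlier results of these data known. Replicate numbers were checked for pairing by the correlation of the replicate deviations in WT and K20R, which was 0.0288 across 13303 promoters, and replicates were treated as unpaired. The 1 p-value given comes from exchanging the genotype labels of these 4 libraries, and it does not measure variation between clones.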

Additional observations from a re-analysis of the deposited data

How the results depend on the processing

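The set of losing promoters depended most on the size of change asked for and on the measure ranked. With a minimum of 5 points 2374 promoters lost and 2618 gained rank, and with a minimum of 20 points these were 346 and 405, of which 39.6% of the losing ones were CpG-rich. Ranked by fold, 53.0% of losing promoters were CpG-rich, and the distal difference was 0.146 points in place of -1.70, which reversed its sign. The cause was not tested. Leaving out 1 library at a time gave 1738 to 2008 losing and 1944 to 2228 gaining promoters, since fewer libraries had to agree, with 80.8% to 86.2% of the 1403 kept. It gave a CpG-rich share of 44.6% to 55.03% and a distal difference of -2.97 to -1.23 points. The other settings were peaks within 500 or 2000 bp, a −log10 q of at least 5, all protein-coding transcript starts, shared peaks counted once, the stretch of chromosome 14 kept and, chosen after seeing the data, chromosome 8 left out and WT summits inside the K20R peaks. They moved no count by over 1.5 times. With a replicate block, in which libraries of the same number were compared, 1488 promoters lost and 1719 gained rank, 48.5% of the losing ones were CpG-rich and the distal difference was -1.25 points. By rank, same-numbered libraries did not deviate together (r = 0.0288), but ranks remove any shift of a whole library. The median fold of ranked promoters was 8.50 in WT and 8.31 in K20R for replicate 1. For replicate 2 it was 10.2 and 10.1. Whether same-numbered libraries shared a batch was not tested. With 2 libraries a group the exact permutation test could not pass 0.05, and unknown read depth limits the weaker peaks.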

Other observations

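Promoters with a peak in both WT lists and neither K20R list could not be ranked. There were 171 of them, and the strongest included Vwa5b1, Grrp1, Slc39a10, Cd93 (a receptor of endothelial and myeloid cells) and Ppp1r16b. Vwa5b1 stood at −log10 p of 42.0 and 68.3 in the WT lists, and Cd93 at 30.2 and 65.9. Since called peaks had been removed from the lists, absence of a peak is not absence of signal.

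On the X chromosome, which the rule left out, 60 of 440 promoters with a peak in all 4 lists met the same conditions (13.6%) and 39 met the mirrored ones. The median change there was -2.21 points.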
